A study of Mus musculus with 26 samples.

Results

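The genes for 9 proteins that join the cerebral cavernous malformation (CCM) complex to the MEKK3-MEK5-ERK5 kinase cascade were followed in whole mouse embryos with and without Traf7. They were Heg1, Krit1, Ccm2, Ccm2l, Pdcd10, Map3k2, Map3k3, Map2k5 and Mapk7. They were chosen by name for their place in the pathway, and all 9 were found among the 54532 genes of the deposited tables and passed the filter on low values in both comparisons. RNA was sequenced from 26 embryos at embryonic day (E) 9.5, 1 library per embryo.

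The first comparison set 6 Traf7 GLOko embryos (labelled TRAF7_GLOko, the global knockout) against 6 WT embryos. The knockouts came from intercrosses of heterozygotes whose floxed Traf7 allele had been recombined by E2a-Cre, a transgene driven by the adenovirus EIIa promoter and active in all cells of the early embryo. The second comparison set 7 Traf7 ECko embryos (TRAF7_ECko, Traf7 fl/fl;Tie2-Cre+) against 7 Traf7 EChet embryos (TRAF7_EChet, Traf7 fl/+;Tie2-Cre+). Tie2-Cre acts in early endothelium and in blood cells, so only a part of the cells of an ECko embryo lose Traf7. The EChet controls carry the same Cre and lose a single Traf7 copy in those cells, so their level is not that of untouched embryos. No embryo was treated, the line is on a C57BL/6 background, and each embryo was freed of its yolk sac before lysis.

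HEG1 is a transmembrane receptor of endothelium and endocardium that holds KRIT1 (CCM1) at cell junctions. KRIT1 binds CCM2, which in turn binds PDCD10 (CCM3), and loss of any of these CCM proteins can cause cavernous vascular malformations in the brain. CCM2 also binds the kinase MEKK3 and restrains it, while MEKK3 phosphorylates MEK5, MEK5 activates ERK5, and ERK5 drives the transcription factors KLF2 and KLF4 in endothelium under flow. TRAF7 is an E3 ubiquitin ligase that binds MEKK3.

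The promoters of Ccm2 and Map3k3 are shown because the protein of the first binds the protein of the second, yet only the first gene passed the test in what follows. The windows come from RefSeq (GRCm38.p6, the build called mm10) and hold the 250 bases before each annotated start, read 5′ to 3′ on the plus strand. Capitals mark CACCC, the core that KLF factors read, and GGGCGG, the GC box, on either strand. No capital stretch is shared by both motifs. RefSeq gives Ccm2 an upstream start at chr11:6546637-6546886 and a downstream start at chr11:6559933-6560182, and Map3k3 a start at chr11:106084337-106084586.
Ccm2, upstream start: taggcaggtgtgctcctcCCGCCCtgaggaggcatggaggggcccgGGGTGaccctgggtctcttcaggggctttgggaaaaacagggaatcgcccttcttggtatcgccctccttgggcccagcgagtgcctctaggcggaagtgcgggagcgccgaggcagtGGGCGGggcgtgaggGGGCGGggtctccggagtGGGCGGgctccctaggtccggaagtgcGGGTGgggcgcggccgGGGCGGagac
Ccm2, downstream start: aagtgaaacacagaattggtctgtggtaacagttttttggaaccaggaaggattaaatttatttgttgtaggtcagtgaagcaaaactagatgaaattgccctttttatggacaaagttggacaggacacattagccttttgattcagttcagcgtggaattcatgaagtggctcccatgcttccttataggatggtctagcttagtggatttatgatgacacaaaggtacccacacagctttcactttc
Map3k3: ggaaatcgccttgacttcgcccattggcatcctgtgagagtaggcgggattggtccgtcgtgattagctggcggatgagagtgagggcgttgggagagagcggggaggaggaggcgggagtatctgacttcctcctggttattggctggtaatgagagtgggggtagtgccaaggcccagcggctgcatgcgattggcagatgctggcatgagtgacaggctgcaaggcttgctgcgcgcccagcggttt
The upstream Ccm2 window held 20 CpG dinucleotides, 2 matches of CACCC and 5 of GGGCGG. In the downstream Ccm2 window there was 1 CpG and no match of either motif. The Map3k3 window held 14 CpG dinucleotides, no match of these motifs, and 4 matches of CCAAT. Genes that were not called held matches too. The Heg1 window had 5 of CACCC and 7 of GGGCGG, and each Mapk7 window 4 and 2. Pdcd10 had 0 and 2, Map2k5 had 0 and 1, and the Krit1 windows had neither motif. A link between these motifs and the calls was not tested. Of all 32851 windows of this length, 52% held CACCC, 32.7% held GGGCGG and 33.8% held CCAAT, so each of these motifs is common. Windows of 7 of the 9 genes were used, 10 windows in all, with a median of 20.5 CpG against 6 over all windows. The deposited values are sums over a gene and do not separate transcripts of the Ccm2 starts.

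Values are FPKM (fragments per kilobase of exon and per unit of mapped fragments), which allow genes to be compared per length. The libraries held 16662293 to 25364652 reads in genes. In the targeted gene, Traf7, FPKM was 1.75 to 3.12 in GLOko against 11.1 to 20.7 in WT, and WT embryo 4 held the 11.1 while the other WT embryos held 18.9 or more. Traf7 differed by -2.85 on the log2 scale (SE 0.171, limma adjusted p = 3.98e-06). In ECko it was 13.6 to 20.4 against 18.8 to 22.7 in EChet, groups that overlap (-0.24, SE 0.0754, limma adjusted p = 0.203). Klf2, the ERK5 target that the study followed, fell in both comparisons, by 3.90 in GLOko (limma adjusted p = 0.00073) and by 1.34 in ECko (limma adjusted p = 0.0091). The Klf2 call in ECko held in 24 of 27 other fits and not with all 4 groups in 1 fit, with the endothelial marker mean as a covariate or with a replicate block.

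Some embryos stood apart from their group. At 16662293 reads per embryo, GLOko 1, 2 and 6 showed fewer detected genes than any WT embryo, with a group range of 16825 to 19803 against 19263 to 19699 in WT. Summed FPKM of 12 cardiomyocyte markers was 18.4 in GLOko 1, 52 in WT 4, 54.6 in ECko 3 and 80.2 in ECko 4. Every other embryo held at least 264. GLOko 2 to 6 held 763 to 1385, where WT embryos held 760 at most. All 12 markers had a positive log2 difference in GLOko (median 0.49) and a negative one in ECko (median -0.79). No cardiomyocyte marker was called in either comparison, and their part in the members' differences was not tested. No tested erythroid, macrophage or yolk sac endoderm marker was called by limma either, while Alb in GLOko and Cd68 and Csf1r in ECko had lower values at an unadjusted p under 0.05. The 6 macrophage markers summed to 2.49 FPKM at most, and the 8 yolk sac endoderm markers to 0.905 to 532 in GLOko against 5.44 to 30.4 in WT. GLOko 4 held 134 and GLOko 5 held 532 of the latter, while the other GLOko embryos held 15.8 or less. Both embryos stay in the fits without GLOko 1, 2 and 6 that are given below. Because the tables were scaled separately, FPKM of WT and GLOko and of EChet and ECko are set side by side but not tested across tables.

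In control embryos the genes fell into an upper and a lower set of levels. Mapk7 was highest in WT at 20.2 ± 1.18 FPKM (SD, n = 6), and it exceeded Ccm2, the next gene, in 6 of 6 WT embryos. Ccm2 (15.1 ± 1.49) and Map3k3 (15.04 ± 1.47) could not be put in order, since each was the higher in 3 of 6 embryos. The same held for Map2k5 (11.9 ± 0.997) and Pdcd10 (11.9 ± 1.34). Below them came Heg1 at 5.45 ± 0.452 FPKM, and then Krit1 (1.81 ± 0.193), Ccm2l (1.36 ± 0.609) and Map3k2 (1.22 ± 0.11), whose neighbours in this order overlapped. The EChet embryos had the same genes above and below 5 FPKM, but there Map3k3 exceeded Ccm2 in 7 of 7 embryos. Krit1 owes part of its low place to the length used: its FPKM was divided by 21853 bases, the union of all annotated exons, whereas its principal transcript in GENCODE has 2930 bases. At that length the WT mean would be 13.5 FPKM. For the other genes the deposited length was 1.01 to 1.97 times that of the principal transcript.

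**Figure D1:**
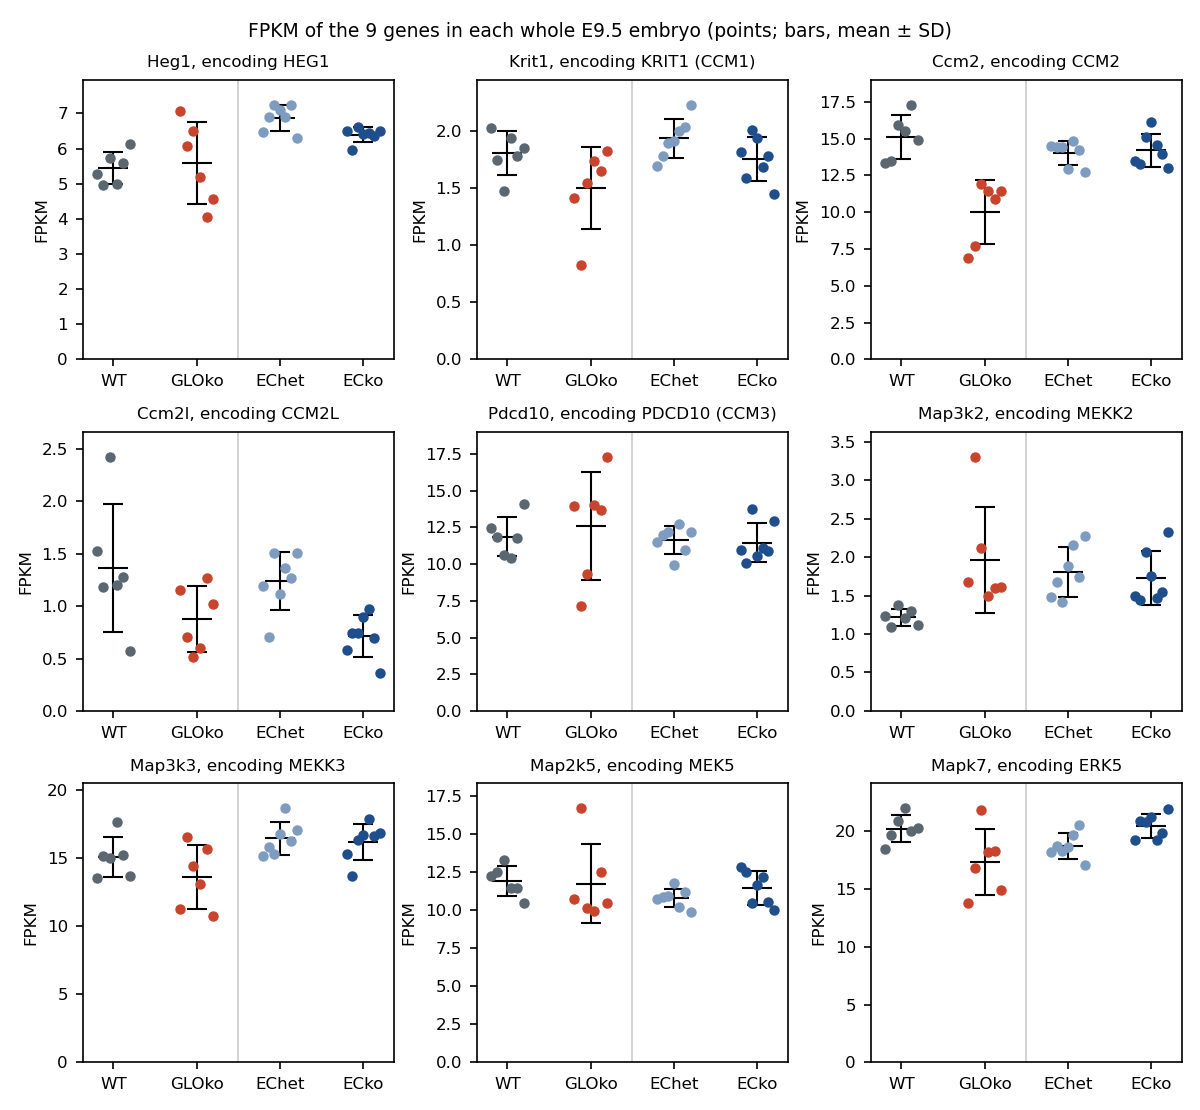
FPKM of each gene (linear axes from 0) in the 6 WT, 6 GLOko, 7 EChet and 7 ECko embryos, 1 point per embryo in replicate order, with bars for the mean ± SD. Ccm2 is lower in all 6 GLOko embryos than in any WT embryo, Map3k2 is higher in all 6, and in the right of each panel ECko and EChet overlap for every gene.

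Of the 9 genes, 1 was called lower and none higher in GLOko against WT, at a limma adjusted p of 0.05 or less. Over all 17573 genes tested, 10.4% were called, with 5.42% higher and 5.01% lower, so the members' count is near that of genes at large. The called gene was Ccm2, at 0.666 of its WT level. Map3k2 was higher in every GLOko embryo without passing the threshold. In ECko against EChet none of the 9 was called, where 0.0971% of 17514 genes were (0.0571% higher and 0.04% lower, 17 genes in all), and 2 members, Ccm2l and Mapk7, had an unadjusted p under 0.05 as 2531 genes did. By limma-voom on the recovered reads the count in ECko was 0 of 9 too. The median log2 change of the 9 genes was -0.14 in GLOko, against 0.01 over all genes, and -0.02 in ECko, against 0.00028.

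**Figure D2:**
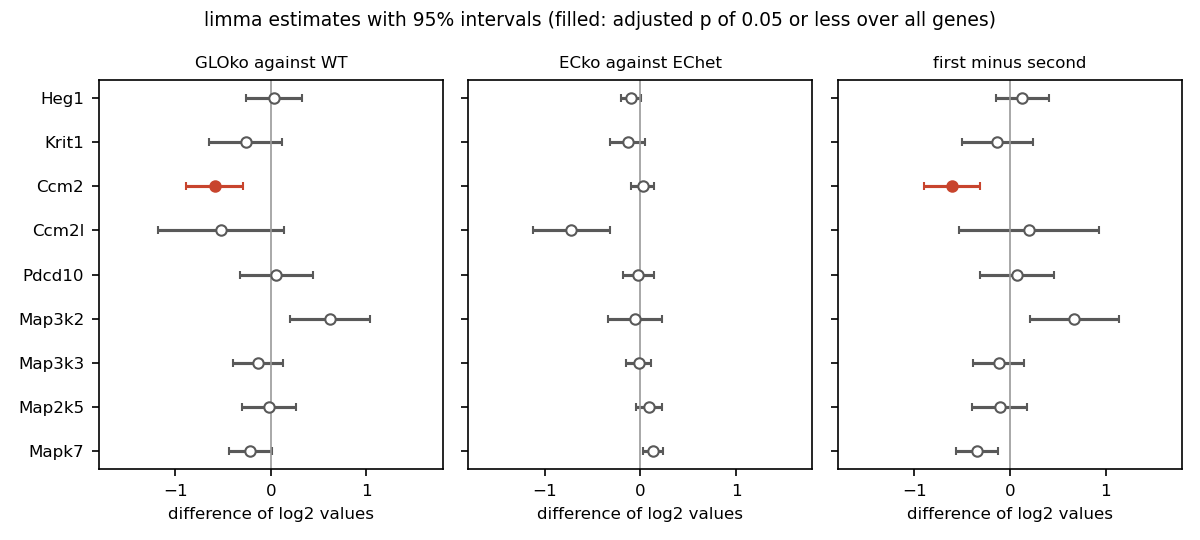
Estimated differences of log2(FPKM + 0.1) with 95% intervals from limma for GLOko against WT (left), ECko against EChet (middle) and the first minus the second (right). Ccm2 is the filled point at -0.59 on the left and -0.61 on the right, and no gene is filled in the middle panel.

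The receptor gene Heg1 (ENSMUSG00000075254, mm10 chromosome 16, 33684370 to 33771576, plus strand) kept a similar mean level in both comparisons. In WT its FPKM was 4.98 to 6.12 with a median of 5.45, and in GLOko 4.06 to 7.08 with a median of 5.63. The GLOko embryos lay on both sides of the WT range, 2 above it, 2 within it and 2 below it. Their log2 difference was 0.03 (95% interval -0.27 to 0.33, limma adjusted p = 0.908), and its sign turned in 4 of 14 other fits. In EChet the FPKM was 6.29 to 7.23 with a median of 6.91, and in ECko 5.97 to 6.62 with a median of 6.45. The groups overlapped, with a log2 difference of -0.10 (95% interval -0.20 to 0.01, limma adjusted p = 0.369). ECko 2, at 5.97, stood below every EChet embryo and the other ECko embryos, which held 6.35 to 6.62. Heg1 shares 318 exon bases with Gm15657 on the opposite strand, and no source used here gives the strand setting of the counting.

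Krit1 (ENSMUSG00000000600, chromosome 5, 3803184 to 3845564, plus strand), the scaffold that binds HEG1, RAP1 and CCM2, was lower on average in GLOko, but the groups overlapped. Its FPKM was 1.48 to 2.03 in WT with a median of 1.82, and 0.826 to 1.83 in GLOko with a median of 1.60. The lowest value belonged to GLOko 2, and the other GLOko embryos held 1.42 or more. In log2 terms the groups differed by -0.26 (95% interval -0.65 to 0.12, limma adjusted p = 0.355), and -0.12 without GLOko 2. In EChet the FPKM was 1.70 to 2.23 and in ECko 1.45 to 2.01, a log2 difference of -0.13 (95% interval -0.32 to 0.05, limma adjusted p = 0.508).

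Ccm2 (ENSMUSG00000000378, chromosome 11, 6546887 to 6596744, plus strand) encodes the adaptor that ties KRIT1 to PDCD10 and MEKK3. In WT embryos 1 to 6 its FPKM was 13.4, 13.5, 15.9, 15.5, 17.3 and 14.9. In GLOko embryos 1 to 6 it was 6.91, 7.68, 11.9, 11.4, 10.9 and 11.5. Every GLOko embryo was below every WT embryo, the highest GLOko value being 11.9 and the lowest WT value 13.4, and GLOko 1 and 2 were far below the other 4. Behind these values stood 482 to 821 reads in GLOko and 908 to 1392 in WT. Ccm2 fell by 0.59 on the log2 scale (SE 0.138, 95% interval -0.88 to -0.29), or to 0.666 of the WT level (95% interval 0.542 to 0.819), with a limma adjusted p of 0.021. The exact two-sided permutation test over the 924 ways to divide the embryos gave p = 0.00216, the smallest this design allows. Of all genes tested, 4.48% had every GLOko embryo below every WT embryo and 4.24% had every one above (8.72% in all), and Ccm2 ranked 736 of 17573 by p.

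The Ccm2 call held in 12 of 14 other fits and in 11 of 12 fits with 1 embryo left out. It was lost when each embryo's count of detected genes entered the fit (-0.48, limma adjusted p = 0.0846), without GLOko 1 and WT 4 (-0.48, limma adjusted p = 0.0603) and without WT 5 (-0.55, limma adjusted p = 0.0539). Without GLOko 1, 2 and 6 the fall was smaller and still passed (-0.37, limma adjusted p = 0.024). The sets of embryos left out together were picked from values of these same data. Of 8 neural markers, 3 were called lower in GLOko (Nes -0.70, Neurog2 -1.10, Sox1 -0.65), where 5.01% of all genes were. Of 26 other fits, 26 called Nes, 23 Neurog2 and 9 Sox1. The markers' summed FPKM was 74 to 189 in GLOko and 161 to 239 in WT, with none at 0. That sum was 145 in GLOko 1 and 189 in GLOko 2, the embryos with the lowest Ccm2. In GLOko 5 and GLOko 6 it was 82.7 and 74. The part of these markers in the Ccm2 difference was not tested. In whole embryos, fewer cells that express a gene and less RNA per cell cannot be told apart.

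In the endothelial comparison Ccm2 stayed near its control level. EChet embryos 1 to 7 held 14.5, 14.4, 14.4, 12.9, 14.9, 14.3 and 12.7 FPKM. ECko embryos 1 to 7 held 13.5, 13.3, 15.1, 16.1, 14.6, 13.9 and 13.0. The groups lay over each other, with a log2 difference of 0.02 (95% interval -0.09 to 0.14, limma adjusted p = 0.888). The effect in GLOko minus that in ECko was -0.61 (SE 0.142, limma adjusted p = 0.0367), which makes Ccm2 the 1 member called for a difference between the comparisons, where 2.07% of 17560 genes were (1.05% higher and 1.02% lower). This call was fragile: it held in 9 of 14 other fits and in 14 of 26 fits with 1 embryo left out, with adjusted p-values of 0.0162 to 0.0694 over those fits. Loss of Traf7 in all cells and in a part of the cells of an embryo differ in extent, so a difference between the comparisons does not say in which cells Ccm2 changed.

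**Figure D3:**
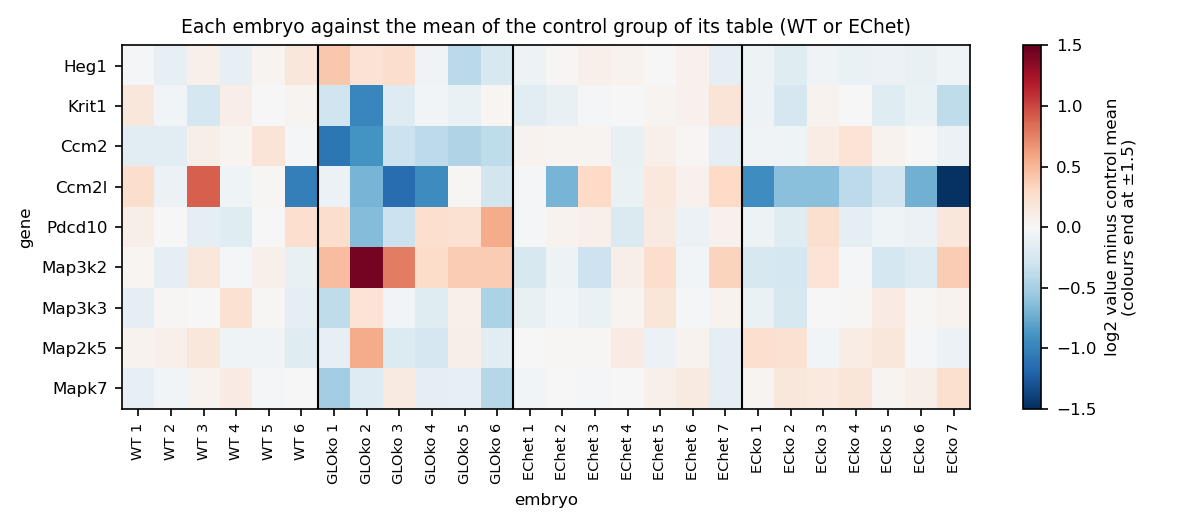
Heat map of the log2 value of each gene in each of the 26 embryos minus the mean of its control group (WT for the left 12 columns, EChet for the right 14), with colours ending at ±1.5. The Ccm2 row is blue in all 6 GLOko embryos and near white elsewhere, and the Map3k2 row is red in all 6 with the deepest colour in GLOko 2. The Ccm2l row is blue in all 7 ECko embryos, and of like depth in GLOko 2, 3 and 4, WT 6 and EChet 2.

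Ccm2l (ENSMUSG00000027474, chromosome 2, 153065955 to 153081735, plus strand) encodes the CCM2 paralogue, which also binds MEKK3 and is enriched in endothelium and endocardium. In EChet embryos 1 to 7 its FPKM was 1.20, 0.705, 1.51, 1.12, 1.37, 1.27 and 1.51. In ECko embryos 1 to 7 it was 0.584, 0.741, 0.748, 0.896, 0.97, 0.697 and 0.365. Of the 7 EChet embryos, 6 lay above every ECko embryo, and EChet 2, at 0.705, lay inside the ECko range. The log2 difference was -0.72 (SE 0.191, 95% interval -1.13 to -0.32), or 0.606 of the EChet level (95% interval 0.458 to 0.802), with an unadjusted limma p of 0.00163 and an adjusted p of 0.177. It ranked 161 of 17514 genes by p, and no other fit called it, with adjusted p-values of 0.112 to 0.801.

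Each Ccm2l value rested on few reads, 21 to 54 in ECko and 38 to 76 in EChet, the fewest of the 9 genes. In GLOko its FPKM was 0.51 to 1.26 against 0.568 to 2.42 in WT, groups that overlap (-0.52, 95% interval -1.18 to 0.14, limma adjusted p = 0.284). The GLOko effect minus the ECko effect was 0.20 and did not pass (95% interval -0.53 to 0.94, limma adjusted p = 0.794). Relative to Ccm2, Ccm2l was at 0.0281 to 0.0665 in ECko and at 0.0489 to 0.119 in EChet. Of 16 endothelial markers, among them Cdh5, Pecam1 and Tek, none was at 0 in any embryo. None of these markers was called in ECko, but 6 (Pecam1, Flt1, Kdr, Eng, Egfl7 and Sox18) were higher at an unadjusted p under 0.05, a p that 2531 of 17514 genes reached. The summed FPKM of the 16 was 125 to 151 in ECko and 116 to 143 in EChet, and their part in the Ccm2l difference was not tested. In GLOko 3 of the 16 rose (Flt1 1.24, Kdr 0.76, Eng 0.46 on the log2 scale), where 5.42% of all genes did. Of 26 other fits, 24 called Flt1, 23 Kdr and 17 Eng. The summed FPKM of the 16 was 123 to 221 in GLOko against 116 to 140 in WT. GLOko 2 held the 221 and the next highest was 161.5, in GLOko 5. GLOko 1 and 6, at 123 and 124, lay within the WT range.

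Pdcd10 (ENSMUSG00000027835, chromosome 3, 75516490 to 75556856, minus strand), the CCM protein that also sits in the STRIPAK phosphatase complex with GCKIII kinases, had close means in both comparisons but varied widely among GLOko embryos. Its FPKM was 10.4 to 14.1 in WT and 7.17 to 17.3 in GLOko, the lowest value in GLOko 2 and the highest in GLOko 6. The log2 difference was 0.05 (95% interval -0.33 to 0.44, limma adjusted p = 0.874), and its sign turned in 2 of 14 other fits. In EChet it was 9.92 to 12.8 and in ECko 10.1 to 13.7 (-0.02, 95% interval -0.18 to 0.14, limma adjusted p = 0.931).

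Map3k2 (ENSMUSG00000024383, chromosome 18, 32163089 to 32236751, plus strand) encodes MEKK2, the nearest relative of MEKK3, which also activates MEK5. In WT embryos 1 to 6 its FPKM was 1.24, 1.09, 1.38, 1.20, 1.29 and 1.12. In GLOko embryos 1 to 6 it was 1.68, 3.30, 2.12, 1.49, 1.60 and 1.61. All GLOko embryos were above all WT embryos, and GLOko 2 stood far above the rest of its group. The log2 difference was 0.62 (SE 0.194, 95% interval 0.20 to 1.04), or 1.53 times the WT level (95% interval 1.15 to 2.05), with a limma adjusted p of 0.0578.

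Map3k2 thus lay at the threshold, and 5 of 14 other fits called it: with sample weights (0.47, limma adjusted p = 0.0312), with limma-voom on recovered reads (0.63, limma adjusted p = 0.0431), with a fixed total (0.67, limma adjusted p = 0.0328), among genes of mean FPKM 1 or more (limma adjusted p = 0.0454) and with all 4 groups in 1 fit (limma adjusted p = 0.0078). It was also called without GLOko 2, the embryo with its highest value (0.46, limma adjusted p = 0.0416), and without GLOko 4 (0.69, limma adjusted p = 0.0424). Over all its fits the difference was 0.41 to 0.69 and never turned. With the endothelial marker mean as a covariate it was 0.43 (limma adjusted p = 0.065). In EChet its FPKM was 1.41 to 2.28 and in ECko 1.45 to 2.33, overlapping as for all 9 members (over all genes, 0.274% had every ECko embryo above every EChet embryo and 0.24% below, 0.514% in all), with a difference of -0.06 (95% interval -0.34 to 0.22, limma adjusted p = 0.884). The GLOko effect minus the ECko effect was 0.67 (95% interval 0.21 to 1.14, limma adjusted p = 0.0937).

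Map3k3 (ENSMUSG00000020700, chromosome 11, 106084613 to 106155446, plus strand) encodes MEKK3, the kinase that CCM2 and TRAF7 bind. Its FPKM was 13.6 to 17.6 in WT with a median of 15.1, and 10.7 to 16.5 in GLOko with a median of 13.7. GLOko 1, 4 and 6 were below all WT embryos, and the other 3 were within the WT range. Map3k3 differed by -0.14 (95% interval -0.39 to 0.12, limma adjusted p = 0.494), and by -0.043 without GLOko 1, 2 and 6 (limma adjusted p = 0.792). In EChet it was 15.2 to 18.6 and in ECko 13.7 to 17.8, a difference of -0.02 (95% interval -0.15 to 0.11, limma adjusted p = 0.916). The ratio of Map3k2 to Map3k3 FPKM was 0.0682 to 0.0921 in WT and 0.102 to 0.20 in GLOko, without overlap. Map3k2 alone did not overlap either, and the ratio was not set against those of other gene pairs. Map3k3 remained the more abundant per length in every embryo. In EChet that ratio was 0.0925 to 0.134, and in ECko 0.0825 to 0.139, and these groups overlapped.

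Map2k5 (ENSMUSG00000058444, chromosome 9, 63163768 to 63377902, minus strand) encodes MEK5, the kinase that activates ERK5. Its FPKM was 10.5 to 13.3 in WT and 9.97 to 16.7 in GLOko, where GLOko 2 held 16.7 and the other 5 embryos 12.5 or less. The log2 difference was -0.02 (95% interval -0.30 to 0.26, limma adjusted p = 0.945), and its sign turned in 2 of 14 other fits. In EChet it was 9.89 to 11.8 and in ECko 10.03 to 12.9 (0.09, 95% interval -0.05 to 0.22, limma adjusted p = 0.561).

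Mapk7 (ENSMUSG00000001034, chromosome 11, 61488812 to 61494406, minus strand) encodes ERK5, a kinase with a long tail that itself activates transcription. In WT its FPKM was 18.4 to 22 with a median of 20.2, and in GLOko 13.7 to 21.9 with a median of 17.5. Of the GLOko embryos, 5 lay at or below 18.3, under every WT embryo, and GLOko 3, at 21.9, was close to the highest WT value. The log2 difference was -0.21 (95% interval -0.44 to 0.01, limma adjusted p = 0.202), and it was called only in the fit of all 4 groups (limma adjusted p = 0.0465) among 26 other fits. Without GLOko 1, 2 and 6, which include the embryos with its 2 lowest values, it was -0.035 (limma adjusted p = 0.804). In EChet embryos 1 to 7 the FPKM was 18.2, 18.7, 18.3, 18.6, 19.7, 20.6 and 17.0, and in ECko embryos 1 to 7 it was 19.2, 20.8, 20.8, 21.2, 19.2, 19.9 and 21.9. Of the ECko embryos, 4 were above every EChet embryo and 3 inside the EChet range. The mean difference was 0.13 on the log2 scale (SE 0.0483, 95% interval 0.03 to 0.23), with an unadjusted limma p of 0.0157 and an adjusted p of 0.25. The GLOko effect minus the ECko effect was -0.34 (95% interval -0.57 to -0.12, limma adjusted p = 0.0764), and -0.17 without GLOko 1, 2 and 6 (limma adjusted p = 0.307). Mapk7 shares 89 exon bases with Mfap4 on the opposite strand.

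Several differences moved when the embryos that stood apart, which were picked from values of these same data, were left out. Without GLOko 1, 2 and 6 the log2 difference between GLOko and WT was -0.053 for Heg1, -0.10 for Krit1, -0.68 for Ccm2l, 0.062 for Pdcd10, 0.49 for Map3k2 and -0.11 for Map2k5. Without GLOko 1 and WT 4 it was -0.068 for Heg1, -0.24 for Krit1, -0.62 for Ccm2l, -0.026 for Pdcd10, 0.65 for Map3k2, -0.041 for Map3k3, -0.011 for Map2k5 and -0.13 for Mapk7. None of these passed the limma test, and those of Ccm2l and Map3k2 were the largest in both sets. Without ECko 3 and ECko 4, a choice made after seeing the data, the log2 difference between ECko and EChet was -0.10 for Heg1, -0.20 for Krit1, -0.03 for Ccm2, -0.81 for Ccm2l, -0.048 for Pdcd10, -0.11 for Map3k2, -0.029 for Map3k3, 0.11 for Map2k5 and 0.12 for Mapk7, and again none passed. For the difference of effects, Ccm2l went from 0.20 to 0.10 without GLOko 1 and WT 4 and to 0.043 without GLOko 1, 2 and 6.

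**Figure D4:**
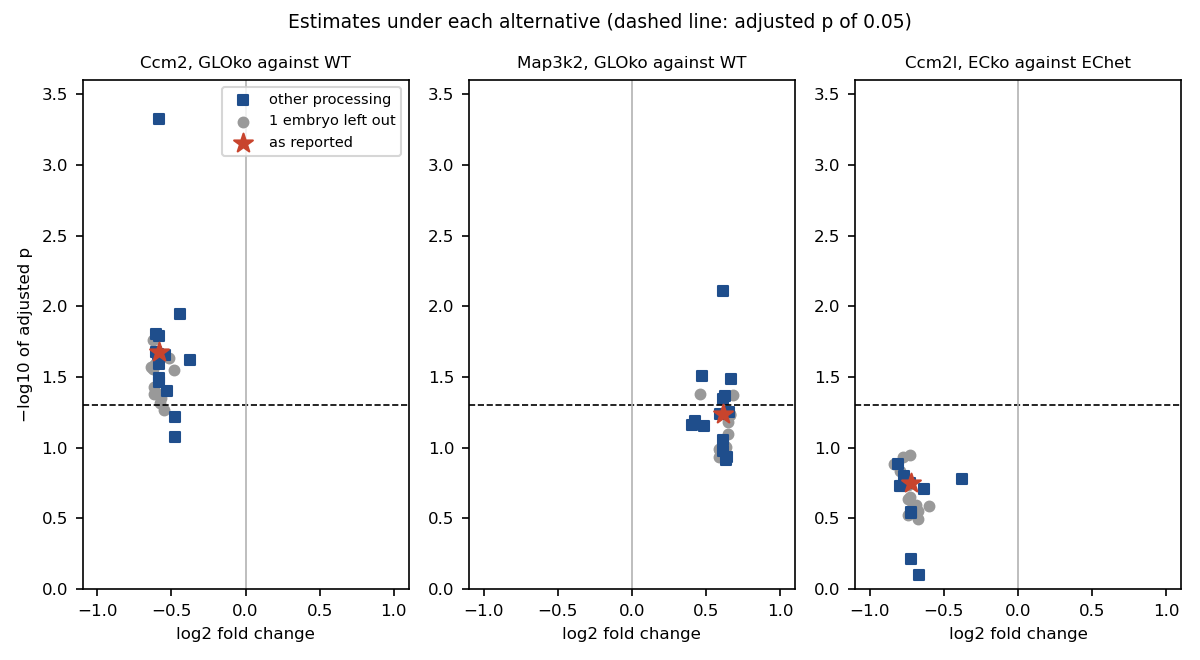
Log2 fold change (x axis) against -log10 of the limma adjusted p (y axis, dashed line at 0.05) of Ccm2 and Map3k2 in GLOko against WT and Ccm2l in ECko against EChet, for the reported fit (star), other processing (squares) and fits with 1 embryo left out (circles). Ccm2 lies mostly above the line, Map3k2 lies around it, Ccm2l lies below it, and no point crosses 0 on the x axis.

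The members varied more among GLOko embryos than among WT embryos. The coefficient of variation was larger in GLOko for 8 of 9 members, the exception being Ccm2l, but the same was true of 90.3% of 12113 genes with a mean FPKM of 1 or more. In ECko it was larger than in EChet for 7 of 9 members and for 73.1% of 11989 genes. GLOko 2 held the lowest or the highest value of its group for 5 of 9 members: it was lowest for Krit1 and Pdcd10 and highest for Map3k2, Map3k3 and Map2k5.

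After each group's mean was taken off, some members moved together over the 26 embryos, which share the spread of a few GLOko libraries. Krit1 and Pdcd10 had a Pearson r of 0.63, Map3k2 and Map3k3 of 0.57, Ccm2 and Mapk7 of 0.53 and Map3k3 and Mapk7 of 0.53. Map2k5 ran against Krit1 (r = -0.68) and Pdcd10 (r = -0.67), while Ccm2 and its partner Map3k3 showed almost no relation (r = 0.07). Among 11836 other genes, those most like Ccm2 included Ier2 (r = 0.86) and Il17d (0.85). For Map3k2 they were Pcnx (0.91), Rprd2 (0.90) and Sp1 (0.89), and for Mapk7 Zfp687 (0.91), Tle3 (0.88) and Kars (0.88). Krit1 was most like Dhx33 (0.92), Ercc6l (0.92) and Ddx46 (0.91), and Pdcd10 most like Rbbp7 (0.91), Idi1 (0.90) and Glmn (0.88). For Heg1 the genes were Rgma (0.85), Prex1 (0.83) and Zeb2 (0.81). For Map3k3 they were Prpf38b (0.81), Derl1 (0.81) and Elmsan1 (0.80), and for Map2k5 Col11a1 (0.88), Gap43 (0.86) and Twist1 (0.86). Ccm2l, with the fewest reads, reached 0.71 with Lats2, 0.62 with Lmbr1 and 0.61 with Slc35a1.

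Genes around the pathway were read as counts over lists of known function, not as tests of a list. Of 20 partners of the CCM proteins, which include the KRIT1 partner Itgb1bp1, RAP1 and its effector Rasip1, the GCKIII kinases Stk24, Stk25 and Stk26 and the other STRIPAK subunits, none was called in either comparison, and 4 in GLOko and 1 in ECko had an unadjusted p under 0.05, which 4969 of 17573 and 2531 of 17514 genes had. Their median log2 change was 0.0016 in GLOko and -0.02 in ECko. The nearest to the threshold in GLOko were Strn, a STRIPAK scaffold (0.31, limma adjusted p = 0.0526), and Nrp1, a co-receptor for VEGF and semaphorins (0.54, limma adjusted p = 0.0617).

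Of 16 regulators and partners of the ERK5 branch, 3 passed in GLOko, where 10.4% of all genes did, and none in ECko, where 2 had an unadjusted p under 0.05 (2531 of 17514 over all genes). The 2 lower genes were Traf7 itself and Cdc37, the kinase co-chaperone of HSP90 (-0.36, limma adjusted p = 0.0232). Traf7 is the deleted gene, so its place in these counts was set by the design. Map3k1, which encodes MEKK1, rose by 0.79 (limma adjusted p = 0.0106), from 5.74 to 7.24 FPKM in WT to 8.21 to 15.9 in GLOko. Scrib, the polarity scaffold, was at -0.52 without passing (limma adjusted p = 0.0871). The Map3k1 call held in 26 of 26 other fits and that of Cdc37 in 19. The median of the list was 0.0012 in GLOko and -0.0043 in ECko.

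Of 16 substrates and targets of the branch, 6 passed in GLOko and 1 in ECko, the latter being Klf2, beside 10.4% and 0.0971% of all genes. This list holds Klf2, on which the study turned. It also holds Nppc, which the study reported as lower in GLOko, and Aqp1, which it reported as lower in ECko, both from these same data. The count of the list is therefore not independent of those reports. In GLOko Klf2, Nppc and Nos3 were lower and Mef2c, Fos and Mef2b were higher, with a median of -0.13. Klf2 was 3.96 to 6.12 FPKM in WT and 0 to 0.831 in GLOko, and it was 3.40 to 5.37 in EChet and 0.907 to 2.40 in ECko. Neither pair of groups overlapped for Klf2, and the library at 0 was GLOko 2. Nos3, which makes nitric oxide in endothelium, went from 2.52 to 3.15 in WT to 0.731 to 2.22 in GLOko (-0.88, limma adjusted p = 0.0289). Nppc, the C-type natriuretic peptide gene, was 0.341 to 2.13 in WT and 0 to 0.298 in GLOko, at most 6 reads per GLOko library (-2.39, limma adjusted p = 0.0115). In ECko Nppc differed by 0.02 from EChet (limma adjusted p = 0.985).

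Several MEF2 transcription factors, MEF2C among them, are phosphorylated by ERK5, and Mef2b was listed as a member of that family. Mef2c rose by 0.67 (limma adjusted p = 0.0489) and Mef2b by 2.08 (limma adjusted p = 0.0332), though Mef2b held only 2 to 10 reads in WT. Fos, an immediate early gene, rose by 1.70 (limma adjusted p = 0.021), with its highest value, 3.08 FPKM, in GLOko 2. Of the other fits, 12 of 26 called Mef2c, 9 of 25 Mef2b, 18 of 26 Nos3, 23 of 25 Fos and 25 of 25 Nppc. In ECko the nearest gene after Klf2 was Aqp1, a water channel and KLF2 target, at -0.91 (limma adjusted p = 0.0786). Klf4, the other KLF factor of the branch, overlapped between groups in both comparisons, at 0.453 to 1.04 FPKM in WT and 0.121 to 1.06 in GLOko, and at 0.425 to 0.799 in EChet and 0.523 to 0.865 in ECko.

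**Figure D5:**
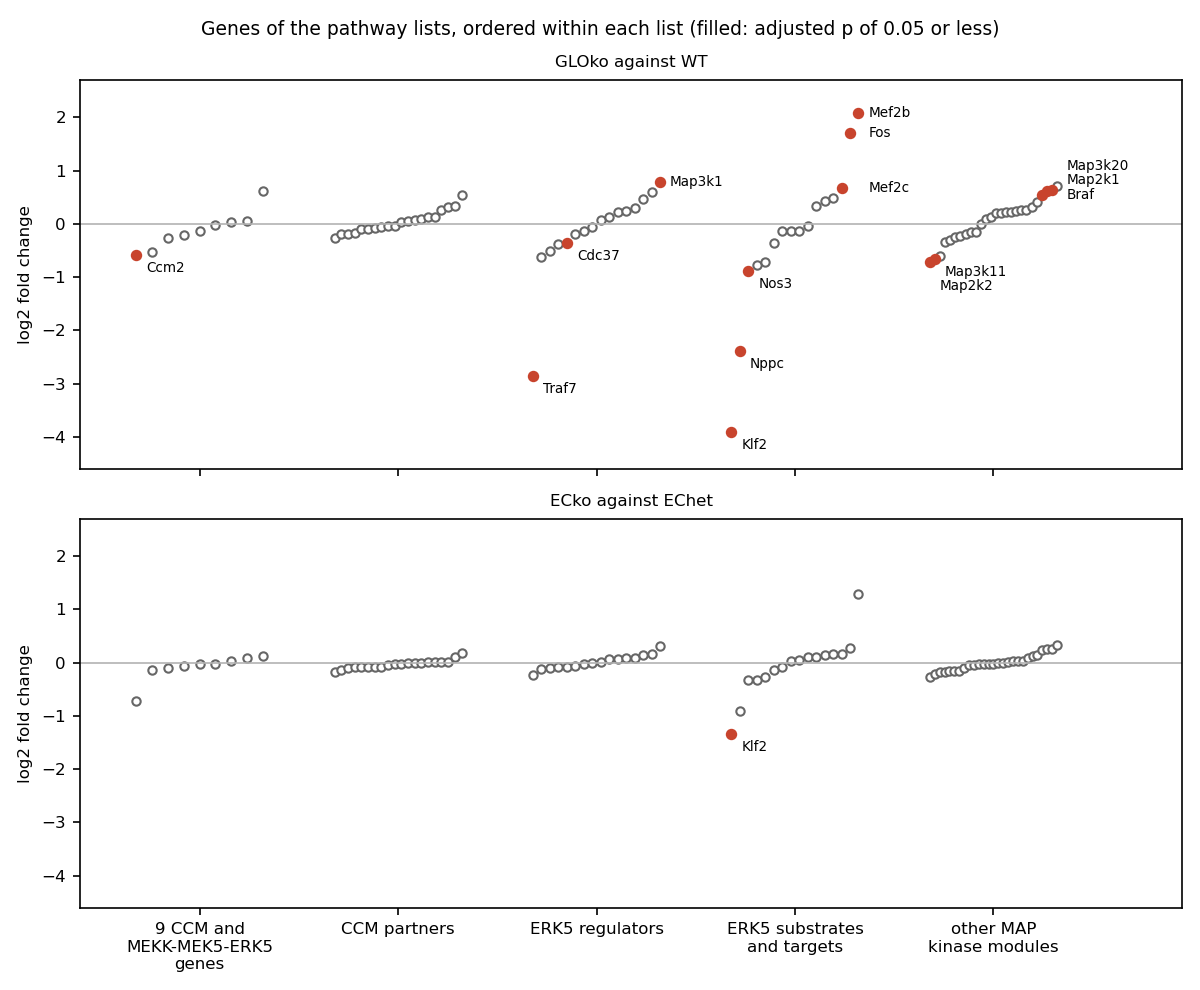
Log2 fold change of each gene (1 point per gene, ordered within its list) for the 9 members and 4 lists of related genes, in GLOko against WT (top) and ECko against EChet (bottom). Filled and named points passed a limma adjusted p of 0.05: Ccm2 among the members on top, none of the 20 CCM partners in either panel, and only Klf2 in the bottom panel.

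Of 27 genes of the other MAP kinase modules, 26 were tested in GLOko and 5 passed, with Map2k1, Map3k20 and Braf higher and Map2k2 and Map3k11 lower. Map2k1 passed in 26 of 26 other fits, Map2k2 in 22, Braf in 15, Map3k11 in 15 and Map3k20 in 12. All 27 were tested in ECko and none passed, while 9 had an unadjusted p under 0.05, as did 2531 of 17514 genes. The share called in GLOko, 5 of 26, and the 1 of 9 members stand beside 10.4% over all genes.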

How the data were processed

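Total RNA of single E9.5 embryos was sequenced on an Illumina platform. Per the labels, the authors aligned reads with STAR to mm10 (no version is named), and they deposited FPKM per gene in 2 tables, each made from gene counts and gene length. The study's list of software names HISAT2 and featureCounts beside STAR, without saying which of them made these tables, and no source used here names the annotation. The tables also hold the authors' gene coordinates and lengths, and all 26 sample columns were used. FPKM times gene length moved in whole steps (100% of values within 0.01), which gave the reads per gene.

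Each table was divided by median-of-ratios factors (genes of mean FPKM 1 or more), and log2(FPKM + 0.1) of genes with mean FPKM of at least 0.1 was fitted with limma 3.58.1 in R 4.3.3 (trend and robust), two-sided, with Benjamini-Hochberg adjustment over all genes tested and calls at 0.05. Fold changes are on this scale, which understates changes of low genes. GLOko against WT and ECko against EChet were fitted separately, and the difference of effects on all 26 embryos. The study used a count model; the deposited unit called for limma on a log scale in its place. The fits were first tested on simulated data. Members' values are the unscaled FPKM; no 2 libraries of a group agreed within sampling noise (chi-square per gene 5.04 to 144). Each library is a separate embryo, but litters are not given.

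The 9 genes, the related lists and the marker lists were chosen with earlier results of these data known. Named were all 9 genes, Traf7 and Klf2, from each list the genes called (at most 6 per comparison) and at most 2 others, and for each member the 3 genes with the highest Pearson r over the 26 embryos. Alternatives were other constants, filters and scalings, a replicate block, sample weights, limma-voom on the recovered reads, 1 fit of all groups, covariates, and fits without single embryos or embryos that stand apart. Promoters are RefSeq windows; overlaps and transcript lengths come from GENCODE (GRCm38). Python 3.11.15 with pandas 2.3.3, SciPy 1.17.1 and matplotlib 3.10.9 made the summaries and figures. One gene that the rule for likeness to a member named is not reported here.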

Additional observations from a re-analysis of the deposited data

Results flagged for a closer look

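Among 36 sets of values (9 genes in 4 groups), 2 held an embryo far from the rest of its group, where chance alone marks about 1 in 20. Map3k2 was 3.30 FPKM in GLOko 2, and 1.49 to 2.12 in the other 5 GLOko embryos. Heg1 was 5.97 FPKM in ECko 2, and 6.35 to 6.62 in the other 6 ECko embryos. The Ccm2 effect in GLOko minus that in ECko was -0.61 on the log2 scale by the test of the difference itself (limma adjusted p = 0.0367), with 6 of 6 GLOko embryos below every WT embryo and ECko and EChet overlapping.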

How the results depend on the processing

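Of 836 other values for the 9 genes, 772 kept their direction and their side of the threshold, 33 turned sign, 20 lost a call and 11 gained one; of 783 for the called genes of the lists, 594 kept the call and 189 lost it. In GLOko against WT, where 1 member was called, 2 were called with mean FPKM of at least 1, a fixed total, sample weights or limma-voom (the added gene being Map3k2), 3 with all 4 groups in 1 fit (Map3k2 and Mapk7 added), and 0 without GLOko 1 and WT 4 or with detected genes as a covariate. With single embryos left out the count was 0 (without WT 5) to 2 (without GLOko 2 or GLOko 4). In ECko against EChet it was 0 in every fit, and Ccm2l had no value among genes of mean FPKM 1 or more. For the difference of effects 1 member was called, and 0 were called without a filter or with a fixed total. The count was also 0 without GLOko 1 and WT 4, without GLOko 1, 2 and 6, or without ECko 3 and ECko 4. These sets of embryos were chosen after seeing the data. With the endothelial marker covariate 2 were called, and with single embryos left out 0 to 2.

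The values that turned sign follow; each reported value was between -0.131 and 0.203, and none was called. In GLOko, Pdcd10 became -0.026 without GLOko 1 and WT 4 and -0.054 with detected genes; Heg1 became -0.063 with sample weights, -0.068 without GLOko 1 and WT 4, -0.053 without GLOko 1, 2 and 6 and -0.033 with detected genes; Map2k5 became 0.035 with a fixed total and 0.0016 with detected genes. In ECko, Ccm2 became -0.013 with a fixed total and -0.03 without ECko 3 and ECko 4, and Map3k3 0.0088 with sample weights. In the difference, Krit1 became 0.032 without GLOko 1, 2 and 6, and Pdcd10 -0.0057 without GLOko 1 and WT 4 and -0.00070 with detected genes. Leaving out single embryos gave, in GLOko, -0.044 to 0.20 for Pdcd10, -0.041 to 0.12 for Heg1 and -0.13 to 0.027 for Map2k5. In ECko it gave -0.0069 to 0.042 for Ccm2, -0.064 to 0.0081 for Pdcd10 and -0.042 to 0.019 for Map3k3, and in the difference -0.19 to 0.016 for Krit1, -0.0036 to 0.38 for Ccm2l and -0.025 to 0.22 for Pdcd10. The causes were not tested.

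Counts over all genes moved too: in GLOko 953 higher and 880 lower became 1103 and 416 with a fixed total, 309 and 147 with detected genes, 350 and 192 without GLOko 1 and WT 4, and 2332 and 2402 with all 4 groups. A replicate block gave 519 and 491 in GLOko and 0 in ECko (2369 at an unadjusted p under 0.05), and Ccm2 kept -0.59 (limma adjusted p = 0.0319). Same-numbered embryos showed little common deviation, with r of -0.0448 to 0.157 in the first comparison and -0.116 to 0.222 in the second. The own number was best for 1 of 6 and 2 of 7. Litters are not given, so these correlations cannot show whether same-numbered embryos share a litter or a batch. Depth limits Ccm2l most, with 21 to 139 reads per library.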

Other observations

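The kinases MEK1 and MEK2, which act side by side in the ERK1 and ERK2 module, moved apart in GLOko. Map2k1 (MEK1) was 26.8 to 38.4 FPKM in WT and 38.6 to 52.9 in GLOko (0.63, limma adjusted p = 0.00759), and the groups did not overlap. Map2k2 (MEK2) was 36.1 to 41.4 FPKM in WT and 13.7 to 33.1 in GLOko (-0.71, limma adjusted p = 0.022), again without overlap and lowest in GLOko 2. Over all genes tested, 8.72% did not overlap between GLOko and WT (4.24% above and 4.48% below). In ECko Map2k1 was 30.1 to 50.2 FPKM against 28.6 to 34.4 in EChet (0.32, limma adjusted p = 0.23), groups that overlap. Map2k2 overlapped there too, at 22.9 to 36.4 FPKM in ECko against 32.8 to 34.9 in EChet (-0.17, limma adjusted p = 0.352). Of the kinases upstream, Braf (0.55) and Map3k20 (0.63) rose and Map3k11 fell by 0.65 in GLOko.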
